A study of Mus musculus with 12 samples.

Results

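Most of the 58 genes described here encode the extracellular and receptor layer of Wnt signalling. They include the Wnt ligands, their Frizzled and Lrp receptors and the secreted antagonists. The R-spondin and Lgr proteins, with the ligases Rnf43 and Znrf3, tune receptor number. A further 5 are feedback or transcription genes of the pathway that act inside the cell. All 58 were chosen by symbol from the 23284 genes of the count table (the numbered Wnt, Fzd, Sfrp, Dkk and Rspo families, Lgr4 to Lgr6, and 14 single genes). Of the 58, 48 had enough reads to be tested, against 14832 of all 23284 genes. RNA came from the whole mandibular condylar fibrocartilage, the fibrous cartilage that covers the jaw joint, of female C57BL/6 mice that had all been ovariectomized at 16 weeks of age and were sampled at 17 weeks. For the 1 week between, the mice carried a pellet with placebo or with 17β-estradiol (E2, 0.01 mg released over 60 days).

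The 4 groups were ERalphaKO with E2 (3 libraries), ERalphaKO with placebo (4 libraries), WT with E2 (3 libraries) and WT with placebo (2 libraries). ERalphaKO mice lack estrogen receptor alpha, the product of Esr1; the labels do not give the deleted exons or the promoter of any Cre. They also do not say that replicates were separate animals, so the p-values measure the spread between these libraries, which may be technical. Ovariectomy removes the main source of estrogen in all groups, so placebo is a low-estrogen state and not that of an intact mouse.

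Wnt proteins are lipid-modified ligands that bind a Frizzled receptor together with Lrp5 or Lrp6, which stabilizes β-catenin and lets it act with Tcf and Lef factors on target genes. The secreted antagonists work in different places. Sclerostin and Dickkopf proteins such as Dkk1 bind Lrp5 and Lrp6. The Sfrp proteins, Frzb and Wif1 bind the ligands, and Notum removes the lipid that ligands need for binding. In the skeleton the pathway is known for promoting bone formation and for its part in cartilage maintenance, and sclerostin, made mainly by osteocytes, is its best known brake in bone.

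Total counts per library were 9696434 to 28750640, so that 3 counts, taken as the detection floor, corresponded to 0.110 to 0.315 CPM, the count of a gene scaled by library size. All CPM given here also carry the TMM scaling of edgeR. Esr1 had 5.66, 5.78 and 4.55 CPM in ERalphaKO E2 libraries and 3.65, 5.68, 4.03 and 5.15 CPM in ERalphaKO placebo libraries, against 10.6, 8.52 and 12.03 CPM in WT E2 libraries and 17.5 and 14.2 CPM in WT placebo libraries. No ERalphaKO library reached the level of any WT library, and transcripts from the gene were still counted. Of 18 fibrocartilage marker genes, 17 had counts in every library, and 17 had enough reads to be tested. Matn1, a matrilin of hyaline cartilage, was at 0 in all 3 ERalphaKO E2 libraries and in 3 of the 4 ERalphaKO placebo libraries. Such a 0 is a counting limit only. Libraries differed in other tissue: summed CPM of 19 skeletal muscle markers ran from 17.6 in 1 WT placebo library to 8224 in ERalphaKO placebo replicate 3, which also had the highest sum of 14 granulocyte markers, 17312 CPM.

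A difference was called where its edgeR quasi-likelihood p, adjusted by Benjamini-Hochberg over all 14832 tested genes, was under 0.05. There were 3 members that passed that threshold in at least 1 comparison: the ligand Wnt4, the receptor Fzd10 and the antagonist Sost, and each was lower in ERalphaKO than in WT cartilage under E2. Wnt4 was also higher with E2 than with placebo in WT cartilage. No member was called in ERalphaKO cartilage for E2 against placebo, or between genotypes under placebo.

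Because these 3 genes carry the calls, the 250 bases before the RefSeq start of each are shown, 5′ to 3′ on the gene's own strand, with coordinates on GRCm38.p6 (the reads were aligned to another build, mm9). The windows are chr4:137277385-137277634 on the plus strand for Wnt4, chr5:128600856-128601105 on the plus strand for Fzd10, and chr11:101967016-101967265 on the minus strand for Sost. Capitals mark an estrogen response element half-site.
Wnt4: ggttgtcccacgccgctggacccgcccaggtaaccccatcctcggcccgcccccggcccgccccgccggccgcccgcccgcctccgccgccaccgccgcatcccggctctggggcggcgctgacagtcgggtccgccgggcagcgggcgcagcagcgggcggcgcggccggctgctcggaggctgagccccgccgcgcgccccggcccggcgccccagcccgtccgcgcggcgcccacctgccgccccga
Fzd10: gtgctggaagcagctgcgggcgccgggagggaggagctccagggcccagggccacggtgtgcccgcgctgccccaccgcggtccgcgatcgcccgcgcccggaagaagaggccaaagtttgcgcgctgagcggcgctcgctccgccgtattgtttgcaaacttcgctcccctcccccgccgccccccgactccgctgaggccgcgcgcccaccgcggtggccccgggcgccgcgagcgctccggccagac
Sost: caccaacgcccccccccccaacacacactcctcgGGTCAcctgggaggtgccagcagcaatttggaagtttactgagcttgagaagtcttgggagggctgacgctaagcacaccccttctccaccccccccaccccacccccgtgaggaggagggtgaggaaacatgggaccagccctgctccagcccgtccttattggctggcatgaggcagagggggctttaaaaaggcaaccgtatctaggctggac
Both strands of each window were searched for the full palindrome GGTCANNNTGACC, for its half-site GGTCA, which is by construction part of the palindrome, and for the Tcf and Lef core words CTTTG followed by AA, AT, TA or TT. The only match in the 3 windows was 1 half-site, on the printed strand of the Sost window, whose first letter lies 216 bases before the start. Over 32851 mouse promoter windows of the same length, 0.0639% held the palindrome, 35.2% the half-site and 14.8% a Tcf and Lef core word. G and C made up 85.2% of the Wnt4 window, 76.4% of the Fzd10 window and 61.2% of the Sost window.

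The most abundant members were secreted proteins grouped here with the antagonists. Per kilobase of exon, which allows levels to be set between genes, Wif1 had the highest median over the 12 libraries, 331 CPM per kb (158 to 414), followed by Dkk3, a divergent Dickkopf protein, at 214 (141 to 241) and Sfrp4 at 65.5 (39.2 to 87.4). The ranges of Wif1 and Dkk3 overlapped, and both lay above that of Sfrp4 throughout. Sost followed with a median of 41.8 CPM per kb and a range of 21.5 to 175. The most abundant ligand per kilobase was Wnt10b, with a median of 20.8 CPM per kb (14.5 to 26.8), then Wnt5b at 16.1 (13.8 to 20.8) and Wnt4 at 6.88 (5.29 to 16.3), and the ranges of these neighbours overlapped. Among receptors Fzd1 had a median of 22.9 CPM per kb, Lrp5 15.6 and Lrp6 10.3. Among members averaging at least 1 CPM, Fzd10 and Lgr5 had the lowest medians. They were 0.191 CPM per kb (0.097 to 0.945) for Fzd10 and 0.192 (0.005 to 0.575) for Lgr5.

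**Figure D1:**
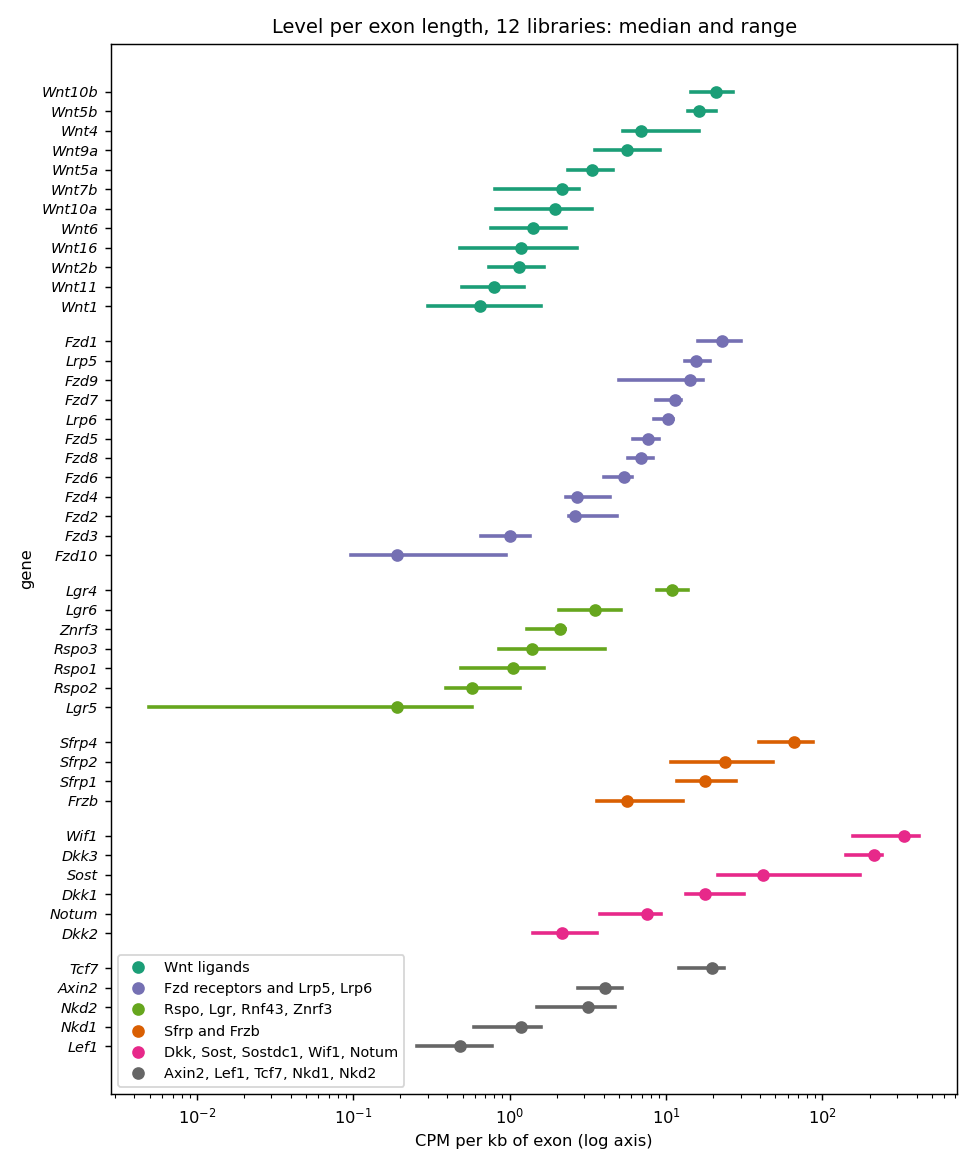
Level of each member with a mean of at least 1 CPM, in CPM per kilobase of exon on a log axis, as the median (point) and the range (line) over the 12 libraries, coloured by role. Wif1 and Dkk3 have the highest medians, 331 and 214 CPM per kb, and Fzd10 and Lgr5 the lowest, 0.191 and 0.192.

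Of the 58 members, 46 averaged at least 1 CPM and 12 did not. Of those 12, 10 could not be tested. Dkk4, Wnt3 and Wnt3a had 0 counts in all 12 libraries, which allows at most the floor of 0.110 to 0.315 CPM in a library and is a counting limit only. Wnt7a, Wnt8a, Wnt8b, Wnt2, Rspo4, Wnt9b and Sfrp5 had 1 to 38 counts in all, and none of them reached 1 CPM in any library (Wnt9b came to at most 0.922 and Sfrp5 to at most 0.870). By role, 12 of 19 Wnt ligands were tested, all 12 Frizzled and Lrp genes, 8 of 9 in the R-spondin group, 4 of 5 Sfrp and Frzb genes, 7 of 8 in the group of Dkk, Sost, Sostdc1, Wif1 and Notum, and all 5 of Axin2, Lef1, Tcf7, Nkd1 and Nkd2.

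Wnt4, a ligand that signals with or without β-catenin depending on the cell, had 62.4, 42.8 and 68.4 CPM in WT E2 libraries, against 28.0 and 29.7 CPM in WT placebo libraries. Every WT E2 library was above both WT placebo libraries, by a wide margin. The log2 fold change was 1.00 ± 0.17 (SE), or 2.01-fold, with a 95% interval of 0.62 to 1.39 and an adjusted p of 0.0419 in edgeR. In ERalphaKO cartilage Wnt4 had 31.8, 32.8 and 28.1 CPM with E2, against 22.2, 26.7, 23.6 and 25.1 CPM with placebo. Those groups did not overlap either, but the log2 fold change of 0.34 ± 0.14 (95% interval 0.03 to 0.65) was not called, with an edgeR adjusted p of 0.848.

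Under E2, Wnt4 averaged 30.9 ± 2.50 CPM in ERalphaKO libraries and 57.9 ± 13.4 CPM in WT libraries (SD, n = 3 each). It was 1.88-fold lower in ERalphaKO, a log2 fold change of -0.91 ± 0.15 (95% interval -1.24 to -0.57, edgeR adjusted p 0.0182). Under placebo the log2 fold change between genotypes was -0.24 ± 0.16 with an edgeR adjusted p of 0.700. The test of the difference itself, the E2 effect in ERalphaKO minus that in WT, gave -0.67 ± 0.22 on the log2 scale (95% interval -1.15 to -0.18), with an unadjusted p of 0.012 and an adjusted p of 0.559 in edgeR, so the E2 effect on Wnt4 was not shown to differ between genotypes after adjustment over all genes.

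Fzd10, a Frizzled receptor, was scarce. It had 0.482, 0.315 and 0.613 CPM in ERalphaKO E2 libraries, from 23 counts in all, against 2.61, 1.69 and 3.07 CPM in WT E2 libraries, from 148 counts. Every ERalphaKO E2 library was below every WT E2 library, and Fzd10 was 5.01-fold lower, a log2 fold change of -2.33 ± 0.37 (95% interval -3.15 to -1.51, edgeR adjusted p 0.0146). Under placebo it had 0.598, 0.631, 0.348 and 0.563 CPM in ERalphaKO libraries, against 1.64 and 1.06 CPM in WT libraries. These groups did not overlap, and the log2 fold change of -1.32 ± 0.36 had an adjusted p of 0.370 in edgeR. E2 against placebo gave 0.87 ± 0.38 on the log2 scale in WT cartilage (edgeR adjusted p 0.601; 0.58 without WT placebo replicate 2) and -0.13 ± 0.36 in ERalphaKO cartilage (95% interval -0.94 to 0.67, edgeR adjusted p 1).

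Sost, which encodes sclerostin, had 68.2, 89.8 and 44.5 CPM in ERalphaKO E2 libraries, against 362, 162 and 296 CPM in WT E2 libraries. The highest ERalphaKO E2 library was far below the lowest WT E2 library, and Sost was 4.06-fold lower, a log2 fold change of -2.02 ± 0.35 (95% interval -2.78 to -1.26, edgeR adjusted p 0.0211). With placebo it had 58.9, 62.4, 82.8 and 46.6 CPM in ERalphaKO libraries, against 149 and 95.8 CPM in WT libraries; the log2 fold change was -0.97 ± 0.34 with an edgeR adjusted p of 0.459, and -0.61 without WT placebo replicate 1. In WT cartilage every E2 library was above both placebo libraries, with a log2 fold change of 1.16 ± 0.38 (2.23-fold, 95% interval 0.31 to 2.01) that did not pass the threshold, at an edgeR adjusted p of 0.415. In ERalphaKO cartilage the E2 and placebo libraries overlapped fully and the log2 fold change was 0.10 ± 0.31 (95% interval -0.59 to 0.79, edgeR adjusted p 1).

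**Figure D2:**
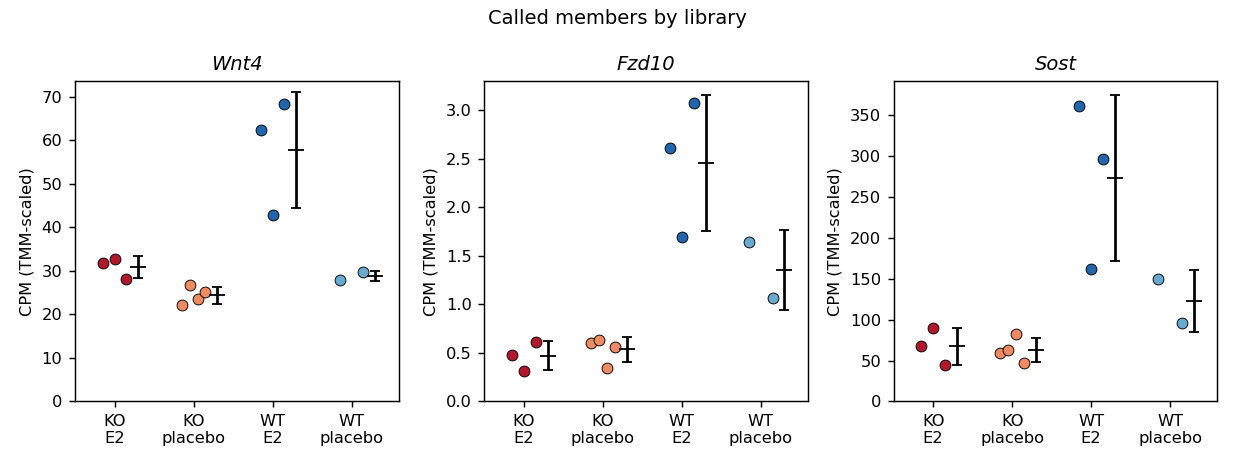
CPM of Wnt4, Fzd10 and Sost in each library (points) with group mean and SD (dash and bar), for ERalphaKO E2, ERalphaKO placebo, WT E2 and WT placebo from left to right. The 3 WT E2 libraries stand highest for each gene, and the ERalphaKO groups lie below both WT groups for Fzd10 and Sost.

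Leaving out 1 library ended each of these calls in some cases. WT E2 replicate 2 had the lowest level of the WT E2 group for all 3 genes. The Wnt4 call for E2 in WT cartilage was kept only without WT E2 replicate 2 (edgeR adjusted p 0.00238) or without ERalphaKO placebo replicate 3 (0.0475). Its edgeR adjusted p was 0.347 with WT placebo replicate 1 left out, 0.394 with WT placebo replicate 2 left out, 0.143 and 0.111 on leaving out WT E2 replicate 1 or 3, and 0.0561 to 0.0733 without any other ERalphaKO library, while the log2 fold change stayed between 0.87 and 1.18. The genotype calls under E2 were lost without WT E2 replicate 1 or 3 or ERalphaKO E2 replicate 1 or 3: edgeR adjusted p was then 0.0614 to 0.098 for Wnt4, 0.052 to 0.0838 for Fzd10 and 0.0634 to 0.104 for Sost, with log2 fold changes over all 12 omissions of -1.08 to -0.77 for Wnt4, -2.57 to -2.13 for Fzd10 and -2.29 to -1.77 for Sost. The replicate block and the fit of only the groups compared ended all 4 calls: edgeR adjusted p was 0.215 and 0.327 for Wnt4 with E2 in WT cartilage, and between genotypes 0.0984 and 0.0938 for Wnt4, 0.0664 and 0.0634 for Fzd10, and 0.078 and 0.0785 for Sost. The comparison of genotypes under E2 and that of E2 with placebo in WT share the 3 WT E2 libraries, so they are not independent.

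Marker genes of several tissues moved with these comparisons. Summed CPM of the 19 skeletal muscle markers was 21.0 to 79.4 in ERalphaKO E2 libraries, against 321 to 1670 in WT E2 libraries. Of the 19 markers, 17 were lower in every ERalphaKO E2 library than in any WT E2 library, against 8.94% of all tested genes. The myosin gene Myh4 was at 0 counts in all 3 ERalphaKO E2 libraries and Myh7 in 2 of them, and Myh4 was at 0 in 2 of the 3 WT E2 libraries. With muscle and granulocyte marker levels as covariates, the log2 fold change under E2 was -0.87 for Wnt4 (edgeR adjusted p 0.0752), -2.69 for Fzd10 (0.0237) and -2.03 for Sost (0.0603). Summed muscle markers overlapped between the WT groups, at 321 to 1670 CPM with E2 and 17.6 to 3425 CPM with placebo. In such bulk tissue, fewer cells of a type and less RNA per cell cannot be told apart.

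Macrophage markers moved with both comparisons that hold calls. The mean log2 CPM of 13 of them was 5.23 to 5.55 in ERalphaKO E2 libraries, against 5.51 to 6.30 in WT E2 libraries, and these WT E2 values lay above the 5.10 to 5.48 of WT placebo libraries. Their summed CPM overlapped in both comparisons. It was 919 to 1921 in ERalphaKO E2, 1087 to 1602 in WT E2 and 900 to 1196 in WT placebo libraries. For the genotypes under E2, 6 of the 13 were lower in every ERalphaKO library than in any WT library, against 8.94% of all tested genes. The median log2 fold change was -0.82. Here edgeR called 1 lower, Cx3cr1, and DESeq2 called 6 lower. For E2 in WT cartilage, 7 of the 13 were higher in every E2 library than in both placebo libraries, against 13.2% of all tested genes. The median was 0.87. An unadjusted p under 0.05 was reached by 8, or 61.5%, against 8.14% of all tested genes, with 0 called by edgeR and 5 called higher by DESeq2. WT E2 replicate 2, the lowest of its group for Wnt4, Fzd10 and Sost, was also its lowest for these markers, and no marker was at 0 in any library. The mean log2 CPM of the 18 fibrocartilage markers was 8.58 to 8.94 in ERalphaKO E2 libraries, against 9.03 to 9.52 in WT E2 libraries, without overlap. Their summed CPM went the other way, also without overlap, at 124263 to 140921 in ERalphaKO E2 and 106998 to 119366 in WT E2 libraries. Of the 18, 5 were lower and 3 higher in every ERalphaKO E2 library than in any WT E2 library. The shares over all tested genes were 8.94% lower and 6.97% higher. The median log2 fold change was -0.009. Of 17 tested, 7, or 41.2%, had an unadjusted p under 0.05, against 11.5% of all tested genes. Of 12 endothelial markers, 11 had a positive log2 fold change for E2 in WT cartilage and 0 for the genotypes under E2. In both, edgeR called 0, and DESeq2 called Vwf lower between genotypes under E2. Their mean log2 CPM overlapped in both comparisons. Of 8 tested lymphocyte markers, 7 had a positive log2 fold change between genotypes under E2, with 0 called by edgeR and 4 called higher by DESeq2. Mean log2 CPM of 11 nerve markers was 2.76 to 3.19 in ERalphaKO E2 and 2.18 to 2.57 in WT E2 libraries. Of these, edgeR called 1 higher. Of 8 tested adipocyte markers, 0 had a positive log2 fold change for E2 in WT cartilage. The median was -3.99, edgeR called 0 and DESeq2 called Adipoq lower. Between genotypes under E2, 13 of 14 granulocyte and 4 of 4 tested erythroid log2 fold changes were positive. DESeq2 called 2 granulocyte markers higher and edgeR 0. The part of macrophage, cartilage, endothelial, lymphocyte, nerve, adipocyte and erythroid content in the Wnt4, Fzd10 and Sost differences was not tested.

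In the authors' deposited tables, all 3 genes passed an adjusted p of 0.05 in the same directions. There the log2 fold change of Wnt4 was 0.96 for E2 in WT cartilage (adjusted p 0.00122) and -0.88 between genotypes under E2 (3.62e-04). The authors' deposited table for the genotypes under E2 gave -1.97 for Fzd10 (adjusted p 8.89e-04) and -1.90 for Sost (2.83e-08). For Sost the authors' deposited tables also passed 0.05 for E2 in WT cartilage, at 1.04 (0.0381), and between genotypes under placebo, at -0.91 (0.0131).

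Read over all 48 tested members, the calls were few. For E2 in WT cartilage, 1 member was called higher and 0 lower, where 0.371% of all tested genes were called higher and 0.0876% lower (0.458% in either direction). An unadjusted p under 0.05 was reached by 7 members, or 14.6%, against 8.14% of all tested genes, and DESeq2 called 2 members. For the genotypes under E2, 3 members were called lower and 0 higher, where 0.647% of all tested genes were called lower and 0.452% higher (1.1% in either direction). In that comparison 14 members, or 29.2%, reached an unadjusted p under 0.05, against 11.5% of all tested genes, and the DESeq2 count was 8.

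For the genotypes under placebo edgeR called 0 members, where 0.0135% of all tested genes were called lower and 0% higher. An unadjusted p under 0.05 was reached by 7 members, or 14.6%, against 8.93% of all tested genes; with DESeq2 1 member was called, Fzd2. For E2 in ERalphaKO cartilage edgeR called 0 members and 0% of all tested genes. There 4 members, or 8.33%, against 5.7% of all tested genes, reached an unadjusted p under 0.05, and the DESeq2 count was 0. The E2 effect differed between genotypes for 0 members in edgeR and in DESeq2, where 0.0539% of all tested genes were called (0.00674% with a higher and 0.0472% with a lower E2 effect in ERalphaKO). For this difference 7 members, or 14.6%, against 6.78% of all tested genes, had an unadjusted p under 0.05.

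The median log2 fold change of the tested members was small in each comparison. It was -0.07 for E2 in WT cartilage (19 of 48 positive), 0.08 for E2 in ERalphaKO cartilage (31 positive), -0.15 for the genotypes under placebo (14 positive) and -0.04 for the genotypes under E2 (23 positive). Over all tested genes these medians were -0.004, 0.00, 0.01 and -0.003. Under placebo, 13 members were lower in all 4 ERalphaKO libraries than in both WT libraries, or 27.1%, against 10.6% of all tested genes, and Sfrp1 alone was higher in all 4, or 2.08%, against 10.5%. Under E2, 5 members were lower in every ERalphaKO library than in any WT library (10.4%, against 8.94% of all tested genes) and 7 were higher (14.6%, against 6.97%). With E2 in WT cartilage 5 members lay above the placebo libraries without overlap (10.4%, against 13.2%) and 10 below (20.8%, against 13.7%). In ERalphaKO cartilage 5 lay above (10.4%, against 2.58%) and 0 below, where 3.09% of all tested genes lay below. There 0 of 18 tested muscle markers had a positive log2 fold change. The median was -5.72, and edgeR gave 16 of them p under 0.05 before adjustment and called 0. Summed CPM of all 19 overlapped, at 21.0 to 79.4 with E2 and 23.3 to 8224 with placebo. All 13 osteoblast and osteocyte markers had positive values, 3 of them (23.1%, against 5.7% of all tested genes) under that p. The part of muscle and bone content in these 5 non-overlaps was not tested. Lymphocyte markers moved with the genotype under placebo, as most did under E2. The summed CPM of 11 of them was 82.9 to 204 in ERalphaKO placebo libraries, against 10.7 to 14.6 in WT placebo libraries. Their part in the member values was not tested.

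**Figure D3:**
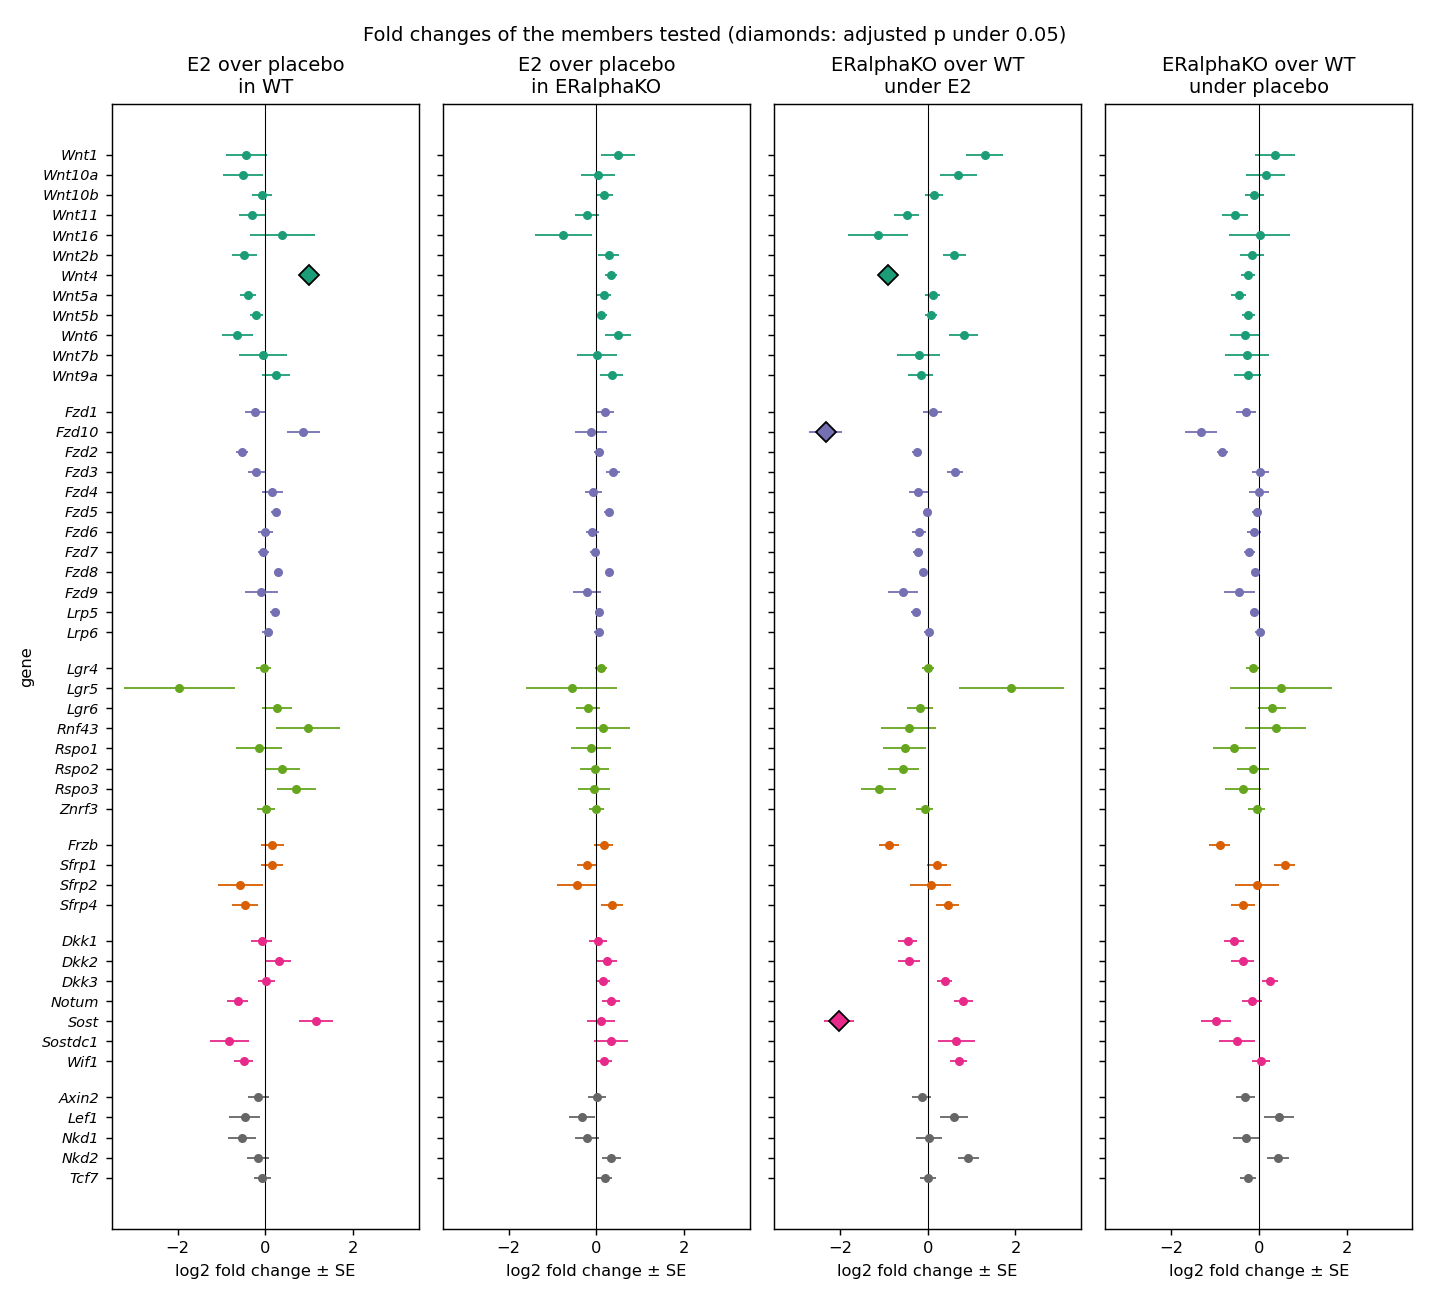
Log2 fold change with SE (edgeR) of the 48 tested members in the 4 comparisons, coloured by role; diamonds mark an adjusted p under 0.05. The diamonds are Wnt4 for E2 in WT cartilage and Wnt4, Fzd10 and Sost for ERalphaKO against WT under E2, and the medians of the 4 panels lie between -0.15 and 0.08.

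Among the other Wnt ligands, 4 more had an unadjusted p under 0.05 in some comparison and none was called. Wnt5a, the classical ligand of signalling without β-catenin, had 21.2, 24.2, 23.3 and 27.5 CPM in ERalphaKO placebo libraries, against 35.8 and 30.3 CPM in WT placebo libraries. The ERalphaKO placebo libraries all lay below the WT ones; the log2 fold change was -0.46 ± 0.17 with an edgeR adjusted p of 0.489. Wnt1, a ligand of β-catenin signalling in which mutation causes bone fragility in humans, had 3.79, 1.37 and 2.45 CPM in ERalphaKO E2 libraries, against 1.61, 0.800 and 0.717 CPM in WT E2 libraries. These groups overlapped by 1 library (log2 fold change 1.30 ± 0.43, edgeR adjusted p 0.240). Wnt6 had 3.37, 5.04 and 3.63 CPM in ERalphaKO E2 libraries, against 1.66, 2.31 and 2.82 CPM in WT E2 libraries, without overlap (0.82 ± 0.33 on the log2 scale, edgeR adjusted p 0.370). For Wnt2b, with 5.06, 5.25 and 7.001 CPM in ERalphaKO E2 libraries and 4.36, 3.53 and 3.48 CPM in WT E2 libraries, the log2 fold change was 0.61 ± 0.26 (edgeR adjusted p 0.406).

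The ligands most abundant in CPM were not called in any comparison. Wnt10b, known for driving bone formation in mice, had 70.3, 91.2 and 67.1 CPM in ERalphaKO E2 libraries and 84.3, 64.8, 49.4 and 71.2 CPM in ERalphaKO placebo libraries, against 51.7, 78.9 and 75.7 CPM in WT E2 libraries and 68.0 and 76.3 CPM in WT placebo libraries. Its groups overlapped in all 4 comparisons. Wnt5b had 40.8, 55.1 and 39.6 CPM in ERalphaKO E2 libraries and 36.6, 42.3, 46.2 and 41.6 CPM in ERalphaKO placebo libraries, against 43.3, 46.9 and 37.5 CPM in WT E2 libraries and 49.03 and 49.3 CPM in WT placebo libraries. Both WT placebo libraries of Wnt5b lay above all WT E2 and all ERalphaKO placebo libraries, and the other groups overlapped. Wnt5b overlaps Fbxl14 on the opposite strand, as Wnt7b overlaps AU022754, in the GENCODE M21 annotation, and how counting treated strand is not given in the sources used here; reads of such neighbours cannot be told apart.

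Of the receptors, Fzd2 came closest to a call under placebo. It had 9.15, 9.56, 8.79 and 9.41 CPM in ERalphaKO placebo libraries, against 17.8 and 15.1 CPM in WT placebo libraries. The 4 ERalphaKO values lay within 1 CPM of each other and far below both WT values; the log2 fold change was -0.83 ± 0.12 and the edgeR adjusted p 0.185, while the authors' deposited table gave -0.81 with an adjusted p of 2.11e-04. E2 libraries of Fzd2 had 9.88, 9.46 and 9.505 CPM in ERalphaKO and 11.9, 12.6 and 9.57 CPM in WT cartilage. The log2 fold change of Fzd2 for E2 in WT cartilage was -0.54 ± 0.13 (edgeR adjusted p 0.176). Between genotypes the E2 effect on Fzd2 differed by 0.59 ± 0.18 on the log2 scale, with an edgeR adjusted p of 0.493.

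Fzd3, a receptor known for planar polarity and axon guidance, had 16.4, 17.3 and 15.7 CPM in ERalphaKO E2 libraries, against 11.5, 12.3 and 8.45 CPM in WT E2 libraries. The groups did not overlap (log2 fold change 0.62 ± 0.18, edgeR adjusted p 0.169). Fzd8 did not overlap between E2 and placebo libraries in either genotype: it had 41.3, 49.2 and 44.6 CPM with E2, against 37.5, 38.4, 34.3 and 37.6 CPM with placebo in ERalphaKO cartilage, and 46.8, 49.5 and 49.2 CPM with E2, against 41.3 and 37.8 CPM with placebo in WT cartilage. The log2 fold change of Fzd8 for E2 was 0.28 ± 0.07 in ERalphaKO cartilage and 0.29 ± 0.09 in WT cartilage, with edgeR adjusted p of 0.848 and 0.294. Fzd5 had 61.7, 54.0 and 55.0 CPM in ERalphaKO E2 libraries, against 47.9, 49.9, 43.2 and 46.8 CPM in ERalphaKO placebo libraries (0.28 ± 0.10 on the log2 scale, edgeR adjusted p 0.848). In WT cartilage Fzd5 had 56.9, 52.6 and 62.3 CPM with E2, against 54.3 and 42.7 CPM with placebo, and these groups overlapped.

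Neither of the co-receptors through which Wnt ligands act on β-catenin was called. Lrp5, in which mutations alter human bone mass, had 138, 168 and 136 CPM in ERalphaKO E2 libraries, against 185, 167 and 179.5 CPM in WT E2 libraries. A single ERalphaKO library overlapped the WT range (log2 fold change -0.27 ± 0.10, edgeR adjusted p 0.342). Lrp6 had 142, 131 and 152 CPM in ERalphaKO E2 libraries and 140.5, 145, 115 and 146 CPM in ERalphaKO placebo libraries, against 147, 149 and 123 CPM in WT E2 libraries and 132 and 137 CPM in WT placebo libraries, with no unadjusted p under 0.05 in any comparison.

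In the R-spondin group, whose secreted R-spondins bind Lgr4, Lgr5 or Lgr6 and withdraw the receptor-clearing ligases Rnf43 and Znrf3, none of the 8 tested members was called. Rspo3 had 5.54, 2.63 and 3.17 CPM in ERalphaKO E2 libraries, against 8.38, 3.91 and 12.5 CPM in WT E2 libraries, with a log2 fold change of -1.12 ± 0.40 (edgeR adjusted p 0.288). WT E2 replicate 2 lay within the ERalphaKO range, and the log2 fold change was -0.69 without WT E2 replicate 3. Lgr4 had 64.9, 65.2 and 64.1 CPM in ERalphaKO E2 libraries and 63.6, 66.02, 52.6 and 60.3 CPM in ERalphaKO placebo libraries, against 51.8, 59.95 and 81.6 CPM in WT E2 libraries and 63.3 and 69.3 CPM in WT placebo libraries. Lgr6 had 21.8, 27.6 and 20.7 CPM in ERalphaKO E2 libraries and 35.5, 32.4, 14.2 and 24.8 CPM in ERalphaKO placebo libraries, against 22.0, 23.6 and 33.3 CPM in WT E2 libraries and 18.3 and 25.2 CPM in WT placebo libraries. The groups of Lgr6 overlapped widely. Lgr5 was uneven even within groups, at 0.0512 to 1.45 CPM in WT E2 libraries and at 0.176 and 4.87 CPM in WT placebo libraries; it overlaps A930009A15Rik on the opposite strand.

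Of the ligand-binding Sfrp family, Frzb (also called Sfrp3), an antagonist first found in cartilage, had 13.6, 19.1 and 17.1 CPM in ERalphaKO E2 libraries, against 29.1, 21.0 and 41.7 CPM in WT E2 libraries. It had 16.4, 16.9, 11.7 and 14.0 CPM in ERalphaKO placebo libraries, against 25.6 and 29.3 CPM in WT placebo libraries. Every WT library, with either pellet, was above every ERalphaKO library. The log2 fold change of Frzb was -0.88 ± 0.24 under E2 and -0.89 ± 0.24 under placebo, with edgeR adjusted p of 0.132 and 0.360, while the authors' deposited tables gave -0.84 and -0.86 with adjusted p of 0.0324 and 0.00100. Sfrp1 had 122, 85.1, 67.3 and 96.0 CPM in ERalphaKO placebo libraries, against 60.7 and 62.5 CPM in WT placebo libraries (0.59 ± 0.24 on the log2 scale, edgeR adjusted p 0.522). Sfrp4 had 278, 313 and 361 CPM in ERalphaKO E2 libraries and 193, 361, 164 and 269 CPM in ERalphaKO placebo libraries, against 200.4, 284 and 209 CPM in WT E2 libraries and 269.5 and 365 CPM in WT placebo libraries, with no unadjusted p under 0.05.

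A further 3 inhibitors, Wif1, Notum and Nkd2, had their lowest group means in WT cartilage with E2. The same held for Sfrp2, Sfrp4, Sostdc1 and Nkd1, and for Fzd3, Lef1, Lgr5, Wnt1, Wnt2b, Wnt6 and Wnt10a. The pattern was thus particular neither to these 3 nor to inhibitors. The antagonists Sost, Frzb and Dkk2 had their highest group means in WT cartilage with E2. Wif1 had 1005, 866 and 823 CPM in ERalphaKO E2 libraries, against 601, 382 and 664 CPM in WT E2 libraries. Notum, the lipid-removing esterase, had 22.3, 19.5 and 20.03 CPM in ERalphaKO E2 libraries, against 14.5, 9.08 and 11.6 CPM in WT E2 libraries. Nkd2, a feedback inhibitor inside the cell that binds Dishevelled, had 22.8, 19.0 and 22.5 CPM in ERalphaKO E2 libraries, against 14.1, 12.5 and 7.22 CPM in WT E2 libraries. For each of the 3 genes no ERalphaKO E2 library overlapped the WT E2 range. The log2 fold changes were 0.71 ± 0.19 for Wif1, 0.82 ± 0.22 for Notum and 0.93 ± 0.23 for Nkd2, with edgeR adjusted p of 0.143, 0.144 and 0.110. The authors' deposited table passed 0.05 for all 3, with adjusted p of 0.0134 for Wif1, 0.00403 for Notum and 0.0144 for Nkd2, and also for Fzd3 (0.0479).

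E2 against placebo in WT cartilage gave a log2 fold change of -0.49 ± 0.21 for Wif1 and -0.63 ± 0.25 for Notum (edgeR adjusted p 0.601 and 0.538); without WT E2 replicate 2 that of Wif1 was -0.28. The WT placebo libraries had 804 and 735 CPM of Wif1 and 18.9 and 17.4 CPM of Notum, above all WT E2 libraries. In ERalphaKO cartilage the E2 libraries of both genes overlapped the placebo libraries, which had 641 to 918 CPM of Wif1 and 11.2 to 20.5 CPM of Notum. The E2 effect in ERalphaKO minus that in WT was 0.66 ± 0.28 for Wif1 and 0.97 ± 0.32 for Notum on the log2 scale, with edgeR adjusted p of 0.706 and 0.559.

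**Figure D4:**
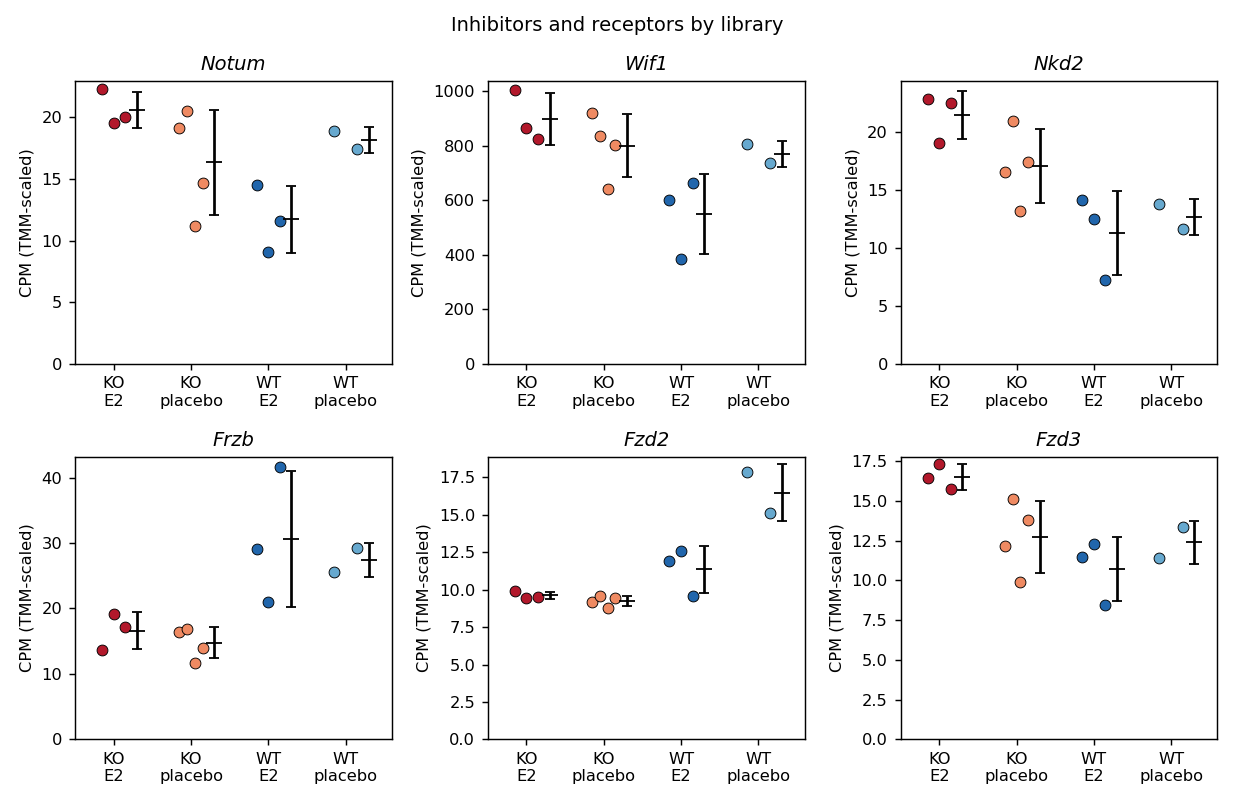
CPM of the inhibitors Notum, Wif1, Nkd2 and Frzb and of the receptors Fzd2 and Fzd3 in each library (points) with group mean and SD, for ERalphaKO E2, ERalphaKO placebo, WT E2 and WT placebo from left to right. None was called in edgeR, and in the Wif1 panel the 3 ERalphaKO E2 libraries (823 to 1005 CPM) lie above the 3 WT E2 libraries (382 to 664 CPM).

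The Dickkopf genes were less uniform. Dkk1, the antagonist that binds Lrp5 and Lrp6, had 43.7, 42.3, 41.9 and 32.4 CPM in ERalphaKO placebo libraries, against 76.5 and 42.1 CPM in WT placebo libraries; the groups overlapped, and the log2 fold change was -0.56 ± 0.22 (edgeR adjusted p 0.501). That value moved to -0.07 with WT placebo replicate 1 left out and to -0.94 with replicate 2 left out. Dkk3 had 732, 810.4 and 744 CPM in ERalphaKO E2 libraries, against 472, 713 and 560.1 CPM in WT E2 libraries, without overlap (0.39 ± 0.17 on the log2 scale, edgeR adjusted p 0.417; 0.26 without WT E2 replicate 1). Of the transcriptional readouts among the members, Axin2, a direct β-catenin target in many tissues, had 18.4, 20.2 and 24.5 CPM in ERalphaKO E2 libraries and 22.3, 20.02, 15.1 and 26.0 CPM in ERalphaKO placebo libraries, against 24.4, 27.4 and 17.5 CPM in WT E2 libraries and 28.9 and 22.7 CPM in WT placebo libraries. Tcf7, a β-catenin partner, had 48.4, 52.7 and 57.5 CPM in ERalphaKO E2 libraries and 49.5, 54.8, 31.8 and 50.1 CPM in ERalphaKO placebo libraries, against 46.6, 56.9 and 54.1 CPM in WT E2 libraries and 61.5 and 48.9 CPM in WT placebo libraries. Neither had an unadjusted p under 0.05 in any comparison.

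Beyond the members, 4 lists of pathway genes were read in the same fit. Of 18 tested genes of ligand secretion and co-receptors, 1 was called, Lrp4; DESeq2 also called Apcdd1 and Tspan12 in the same comparisons. Lrp4, a receptor that holds sclerostin in bone and binds agrin at the nerve-muscle junction, had 219.6, 213 and 221 CPM in ERalphaKO E2 libraries, against 402, 299.9 and 412 CPM in WT E2 libraries. It had 222, 212, 151 and 183 CPM in ERalphaKO placebo libraries, against 181 and 184 CPM in WT placebo libraries. The WT E2 libraries stood apart from the other 9. Lrp4 was 2.03-fold higher with E2 than with placebo in WT cartilage (log2 fold change 1.02 ± 0.17, edgeR adjusted p 0.0419) and 1.71-fold lower in ERalphaKO than in WT cartilage under E2 (-0.77 ± 0.15, edgeR adjusted p 0.0406).

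The E2 effect on Lrp4 in ERalphaKO cartilage was 0.18 ± 0.14 on the log2 scale (edgeR adjusted p 0.991), and the difference of the E2 effects, -0.84 ± 0.22, had an edgeR adjusted p of 0.386. Its call for E2 in WT cartilage was kept only without WT E2 replicate 2 or ERalphaKO placebo replicate 1 or 3 (edgeR adjusted p 0.00971 to 0.0437), and was at 0.0614 to 0.429 without any other library. The call between genotypes was kept without the same 3 libraries (0.0148 to 0.0439) and was at 0.0624 to 0.156 without any other. With muscle and granulocyte marker levels as covariates, the edgeR adjusted p of Lrp4 was 0.0295 for E2 in WT cartilage and 0.0593 between genotypes.

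No gene was called by edgeR in any comparison among 24 tested genes of the β-catenin core, 12 of planar cell polarity and 18 targets. At most 2 core genes and 1 polarity gene had an unadjusted p under 0.05 in any 1 comparison, or 8.33% of either list. Of the targets, 5, or 27.8%, had one for the genotypes under E2, against 11.5% of all tested genes, and at most 2 in any other comparison; DESeq2 called Ctnnbip1 lower for E2 in WT cartilage and Wisp2 lower in ERalphaKO under E2. Ctnnbip1, which blocks β-catenin from Tcf factors, had 28.8, 29.0 and 27.3 CPM in WT E2 libraries, against 37.5 and 35.3 CPM in WT placebo libraries, without overlap (log2 fold change -0.36 ± 0.09, edgeR adjusted p 0.191). Ctnnb1, which encodes β-catenin, ran from 989 to 1387 CPM over the 12 libraries. The polarity gene Celsr1 had 5.18, 2.52 and 3.07 CPM in ERalphaKO E2 libraries, against 2.11, 1.22 and 2.51 CPM in WT E2 libraries (0.89 ± 0.32 on the log2 scale, edgeR adjusted p 0.304; 0.53 without ERalphaKO E2 replicate 1). The polarity gene Scrib had 51.1, 44.9, 49.2 and 45.2 CPM in ERalphaKO placebo libraries, against 42.2 and 42.96 CPM in WT placebo libraries. Among the targets, Wisp2 had 33.1, 42.0 and 49.2 CPM in ERalphaKO E2 libraries, against 91.7, 68.4 and 61.2 CPM in WT E2 libraries, without overlap (-0.83 ± 0.24 on the log2 scale, edgeR adjusted p 0.180). Dact2, a Dishevelled-binding inhibitor, had 0.479 to 1.26 CPM in ERalphaKO placebo libraries, against 2.23 and 1.79 CPM in WT placebo libraries (-1.38 ± 0.40 on the log2 scale, edgeR adjusted p 0.396).

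Because Sost is a gene of osteocytes, bone markers were set beside it. Of 13 osteoblast and osteocyte markers other than Sost, edgeR called 0 in each comparison, while DESeq2 called Alpl and Ibsp for E2 in WT cartilage Col1a1 and Ibsp between genotypes under E2, and Col1a1 for the difference of E2 effects. For the genotypes under E2, 5, or 38.5%, had an unadjusted p under 0.05, against 11.5% of all tested genes; 6 of the 13 had a positive log2 fold change and the median was -0.03. Their summed CPM was 45815 to 49751 in ERalphaKO E2 libraries and 36705 to 41452 in WT E2 libraries, while their mean log2 CPM overlapped, at 7.89 to 7.98 in ERalphaKO E2 libraries and 7.82 to 8.31 in WT E2 libraries. None of the 13 was at 0 counts in any library. The osteocyte genes Dmp1, Mepe and Phex overlapped between these groups: Dmp1 had 595, 624.7 and 638 CPM in ERalphaKO E2 libraries, against 551, 377 and 869 CPM in WT E2 libraries. Mepe had 234, 246 and 168 CPM in ERalphaKO E2 libraries, against 229, 98.3 and 228 CPM in WT E2 libraries. Phex had 222, 198 and 209 CPM in ERalphaKO E2 libraries, against 251, 176 and 327 CPM in WT E2 libraries. WT E2 replicate 2 was the lowest WT E2 library for these 3 genes as it was for Sost.

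Of the same 13 markers, 4 were lower and 2 higher in every ERalphaKO E2 library than in any WT E2 library. Over all tested genes, 8.94% were lower and 6.97% higher in that way. None of the 13 was called by edgeR. The 2 higher were Bglap and Col1a1, each with a log2 fold change of 0.46 ± 0.15 (edgeR adjusted p 0.258 and 0.250). Among the 4 lower, Irx5 had -0.18 ± 0.09 (edgeR adjusted p 0.486). The others, Fgf23, Ibsp and Alpl, were chosen for a closer description after their values were seen. Fgf23, the phosphate hormone of osteocytes, had 5 counts in all in ERalphaKO E2 libraries (0.120, 0.105 and 0.102 CPM), against 39 in WT E2 libraries (0.552, 0.424 and 0.973 CPM), with an edgeR adjusted p of 0.0602. Ibsp, bone sialoprotein, had 1947, 2325 and 2411 CPM in ERalphaKO E2 libraries, against 4374, 3415 and 6167 CPM in WT E2 libraries, with an edgeR adjusted p of 0.0505. Alpl, alkaline phosphatase, had 989, 956 and 901 CPM in ERalphaKO E2 libraries, against 1366, 1033 and 1304 CPM in WT E2 libraries, with an edgeR adjusted p of 0.245. Under placebo Fgf23 had 0.0598, 0.0902, 0.116 and 0.0402 CPM in ERalphaKO libraries, against 0.411 and 0.220 CPM in WT libraries, without overlap. These ERalphaKO values of Fgf23 lay at or below the floor of 3 counts, which was 0.116 to 0.179 CPM in those libraries. Ibsp, with 2194, 2485, 1630 and 1774 CPM in ERalphaKO placebo libraries and 2188 and 2515 CPM in WT placebo libraries, overlapped, and so did Alpl, with 693 to 905 CPM in ERalphaKO placebo libraries and 850 and 918 CPM in WT placebo libraries. The part of bone content in the Sost difference was not tested beyond these values.

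**Figure D5:**
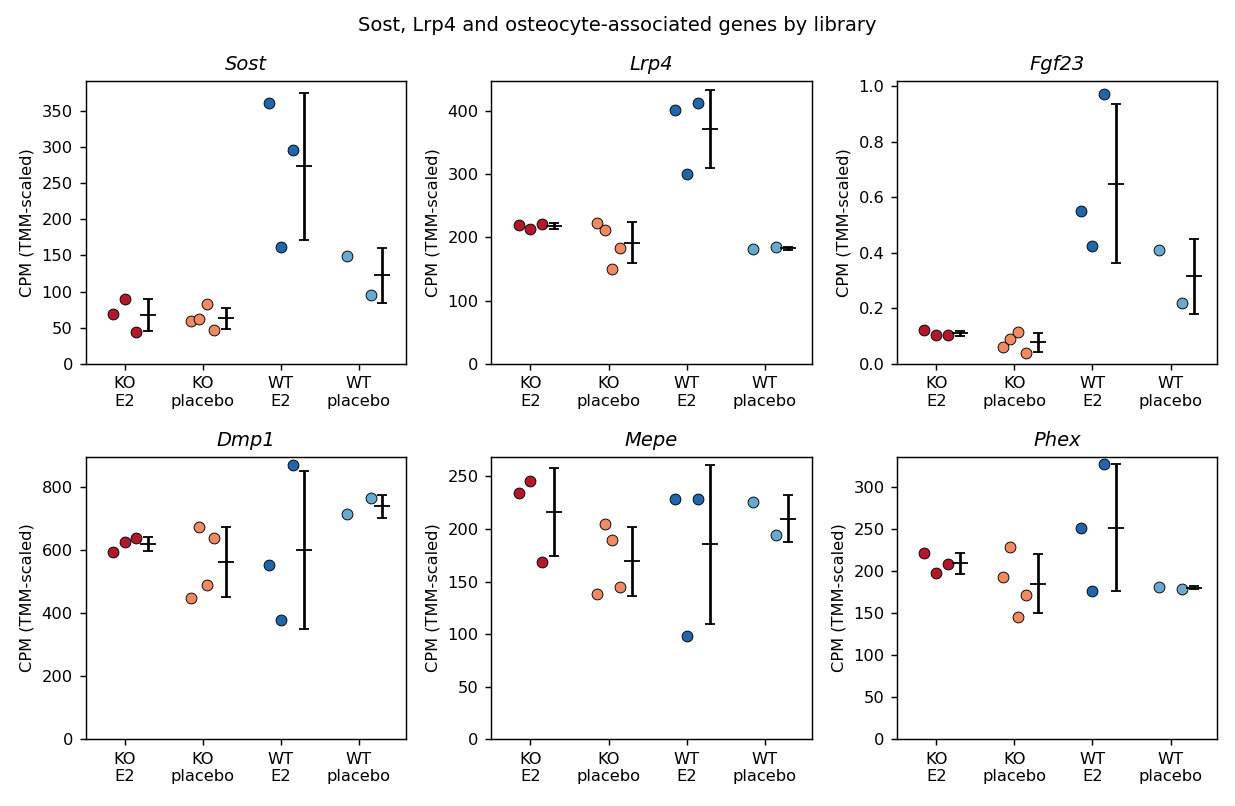
CPM of Sost, its binding partner Lrp4 and the osteocyte genes Fgf23, Dmp1, Mepe and Phex in each library (points) with group mean and SD, for ERalphaKO E2, ERalphaKO placebo, WT E2 and WT placebo from left to right. In the Sost and Lrp4 panels the ERalphaKO E2 libraries lie below all WT E2 libraries, while Dmp1, Mepe and Phex overlap between those groups.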

How the data were processed

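The submitters' processing notes name bcl2fastq 2.17, TopHat and the mouse build mm9. The counting tool, its annotation and its use of strand are not given in the sources used here. Per the labels' protocols, libraries were made from poly-A RNA with a TruSeq kit. The authors deposited raw counts per gene symbol for 12 libraries, and comparison tables, in the column layout of DESeq2, whose log2 fold changes and adjusted p-values are quoted as the authors' own; the deposited normalized counts were not used.

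Counts were tested with edgeR 4.0.16 in R 4.3.3 by a quasi-likelihood fit of 4 group means to all 12 libraries, with TMM scaling, a minimum count of 10 (filterByExpr) and Benjamini-Hochberg adjustment over 14832 genes at 0.05. The SE of a log2 fold change is its size divided by the root of F. The biological coefficient of variation was 25.9%, with 8 residual degrees of freedom. The scripts were tested on simulated data. Alternatives were DESeq2 1.42.0, DESeq2 size factors, no count filter, a replicate block, only the groups compared, marker covariates, and each library left out in turn.

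Exon lengths came from GENCODE M21 (all 58 members matched) and promoters from RefSeq on GRCm38.p6 (38 of 58 members matched). The rule for members reads symbols only, but members and lists were chosen with earlier results of these data known. Per-library values, for the groups a comparison sets side by side, are given for members called, those with any unadjusted p under 0.05 and a mean of at least 1 CPM, and the 2 highest of each role by mean CPM, 28 in all. Other pathway genes are named where called, up to 4 a list, or else as the 2 of smallest p. The 95% intervals come from the edgeR fit and its spread between libraries; the floor of 3 counts covers counting error only. No pair of replicates agreed within sampling noise.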

Additional observations from a re-analysis of the deposited data

Results flagged for a closer look

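Groups of 4 libraries were searched for a single library far from the rest of its group, by Dixon's ratio (the gap to the nearest library over the whole range, critical value 0.829). Of 28 such groups, each a named member in ERalphaKO placebo cartilage, 2 passed, where chance gives about 1 in 20. Dkk1 had 32.4 CPM in ERalphaKO placebo replicate 4, against 41.9 to 43.7 CPM in the other 3 libraries of that group (ratio 0.842). Dkk3 had 537 CPM in ERalphaKO placebo replicate 3, against 725 to 745 CPM in the other 3 (ratio 0.907). Replicate 3 was also the library with the highest muscle and granulocyte marker sums, 8224 and 17312 CPM; their part in the Dkk3 value was not tested.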

How the results depend on the processing

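DESeq2 size factors, or no count filter, left the member calls as they were. For E2 in WT cartilage, where 1 member was called, DESeq2 called 2 (Wnt4 higher, Fzd2 lower), while the replicate block and the fit of only the groups compared called 0, and leaving out single libraries gave 0 to 1. For the genotypes under E2, where 3 were called, DESeq2 called 8 (4 higher, 4 lower), the replicate block 0, only the groups compared 0, marker covariates 1 (Fzd10), and leaving out single libraries 0 to 4. For the genotypes under placebo DESeq2 called 1 (Fzd2) and every other setting 0; for E2 in ERalphaKO cartilage and for the difference of E2 effects all settings called 0. Among the other pathway genes, where Lrp4 was called for E2 in WT cartilage and between genotypes under E2, the replicate block and the fit of only the groups compared called 0 in both. DESeq2 called 4 in both, DESeq2 size factors 2 between genotypes (Lrp4 and Apcdd1), marker covariates 0 between genotypes, and DESeq2 1 for the difference of E2 effects (Lrp4). Single libraries left out gave 0 to 2 for E2 in WT and 0 to 3 between genotypes. Directions turned only for uncalled E2 effects in ERalphaKO cartilage. On the log2 scale Fzd10 (-0.13) ran from -0.37 to 0.045 with single libraries left out, positive only without ERalphaKO E2 replicate 2. Sost (0.10) ran from -0.16 to 0.33, negative without ERalphaKO E2 replicate 2 or ERalphaKO placebo replicate 4 (-0.016), and was -0.0070 under the replicate block. Over all settings the followed log2 fold changes kept direction and side of the threshold 998 times, lost a call 55 times and gained one 11 times; the cause was not tested. With 1 WT placebo library left, that library is assumed to vary like the others.

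The labels do not say that a replicate number marks a shared litter, batch or day. Deviations of 15 same-numbered pairs of libraries correlated at -0.326 to 0.500 (median 0.203, 9 over 0.1), and those of 38 other pairs at -0.500 to 0.516 (median -0.0338). Deviations were taken from group means, so those of the 2 WT placebo libraries mirror each other and their correlations differ only in sign. The pairs are therefore not independent, and the 0.500 and -0.500 are the same value with opposite signs. All 6 pairs of number 2 were over 0.1, 0.215 to 0.470, and 6 of 12 libraries correlated best with their own number. Not every pair was over 0.1, so the numbers were not taken as pairing; number 2 is a hint from the data, and the calls lost under the replicate block are not read as weaker effects. Depth limits Fzd10, which rests on 23 counts in ERalphaKO E2 libraries, and the 10 untested members.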
